A study of Mus musculus with 6 samples.

Results

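The Hox cluster genes of the mouse were measured in cells labelled as macrophages, in a myeloid-like cell complex and in embryonic fibroblasts. All rows of the deposited count table whose symbol is Hoxa, Hoxb, Hoxc or Hoxd followed by a number were taken, which gave 38 genes of 30445. The 37 described here are 10 members of the Hoxa cluster and 9 each of the Hoxb, Hoxc and Hoxd clusters. Messenger RNA was sequenced from wild-type induced macrophages (iMac), from a wild-type myeloid-like cell complex (MCC) and from wild-type mouse embryonic fibroblasts (MEF), with 2 libraries in each group. The series title names c-Myc, a transcription factor, as the only factor used for reprogramming. The labels state no Myc transgene, promoter, day, embryonic age or culture for any group, and they do not say that the libraries of a group came from separate cultures. P-values therefore measure only the spread between these libraries.

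Hox genes encode homeodomain transcription factors that give cells of the embryo their position along the head-to-tail axis and along the limb. They stand in 4 clusters, and genes at the same place in different clusters form a paralogue group, numbered from 1 to 13. Low-numbered groups lie at the 3′ end of a cluster and are used in the hindbrain and neck, and high-numbered groups lie at the 5′ end and are used in the lower trunk, tail and the ends of the limbs. Fibroblasts keep the Hox pattern of the place they came from. In the blood of the mouse, Hoxa members such as Hoxa5, Hoxa7, Hoxa9 and Hoxa10 are used in stem and progenitor cells and are shut down as myeloid cells mature, and Hoxb4 is known for its action in blood stem cells.

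On GRCm38, the same assembly as mm10, the described members of the Hoxa cluster span 98.5 kb at chr6:52162417-52260880 on the minus strand. The annotated Hoxb members, with Hoxb1 included, span 173.9 kb at chr11:96194316-96368256, and the last described one, Hoxb2, ends at 96354012. The Hoxc members span 115.8 kb at chr15:102921103-103036852 and the Hoxd members 96.8 kb at chr2:74668310-74765142. These 3 clusters are on the plus strand. Hoxb1 was not analysed here.

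Library totals lay between 34389817 and 39174367 counts. The marker lists followed the labels of the groups. The 15 macrophage genes summed to 27080 and 22920 CPM (counts per 1e6 of the library total after TMM scaling) in iMac, 16090 and 15620 CPM in MCC and 21.6 and 25.4 CPM in MEF, and no MEF library had a count of Itgam, a myeloid integrin. The 15 fibroblast genes summed to 19.5 and 15.2 CPM in iMac, 1262 and 106 CPM in MCC and 26620 and 13000 CPM in MEF. MCC library 1 stood apart from MCC library 2 in these genes, and for the Hox members the main values of MCC are also given without it.

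Nearly all Hox transcript was gone from the macrophages. The 37 members together had 2.33 and 2.44 CPM in iMac, 34.7 and 2.03 CPM in MCC and 346.7 and 351.6 CPM in MEF. These sums were 0.667% and 0.699% of the MEF mean in iMac, and 9.94% and 0.582% of it in MCC. The fibroblast genes, set beside them on the same scale, were at 0.0986% and 0.0769% of the MEF mean in iMac and at 6.37% and 0.535% in MCC, so MCC library 1 was the higher MCC library for both. The part of remaining fibroblasts in the Hox values was not tested. In such bulk libraries fewer cells that express a gene and less RNA in each cell cannot be told apart. In the iMac libraries 4 and 5 members had more than 3 counts, in the MCC libraries 29 and 6 did, and in each MEF library all 37 did.

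**Figure D1:**
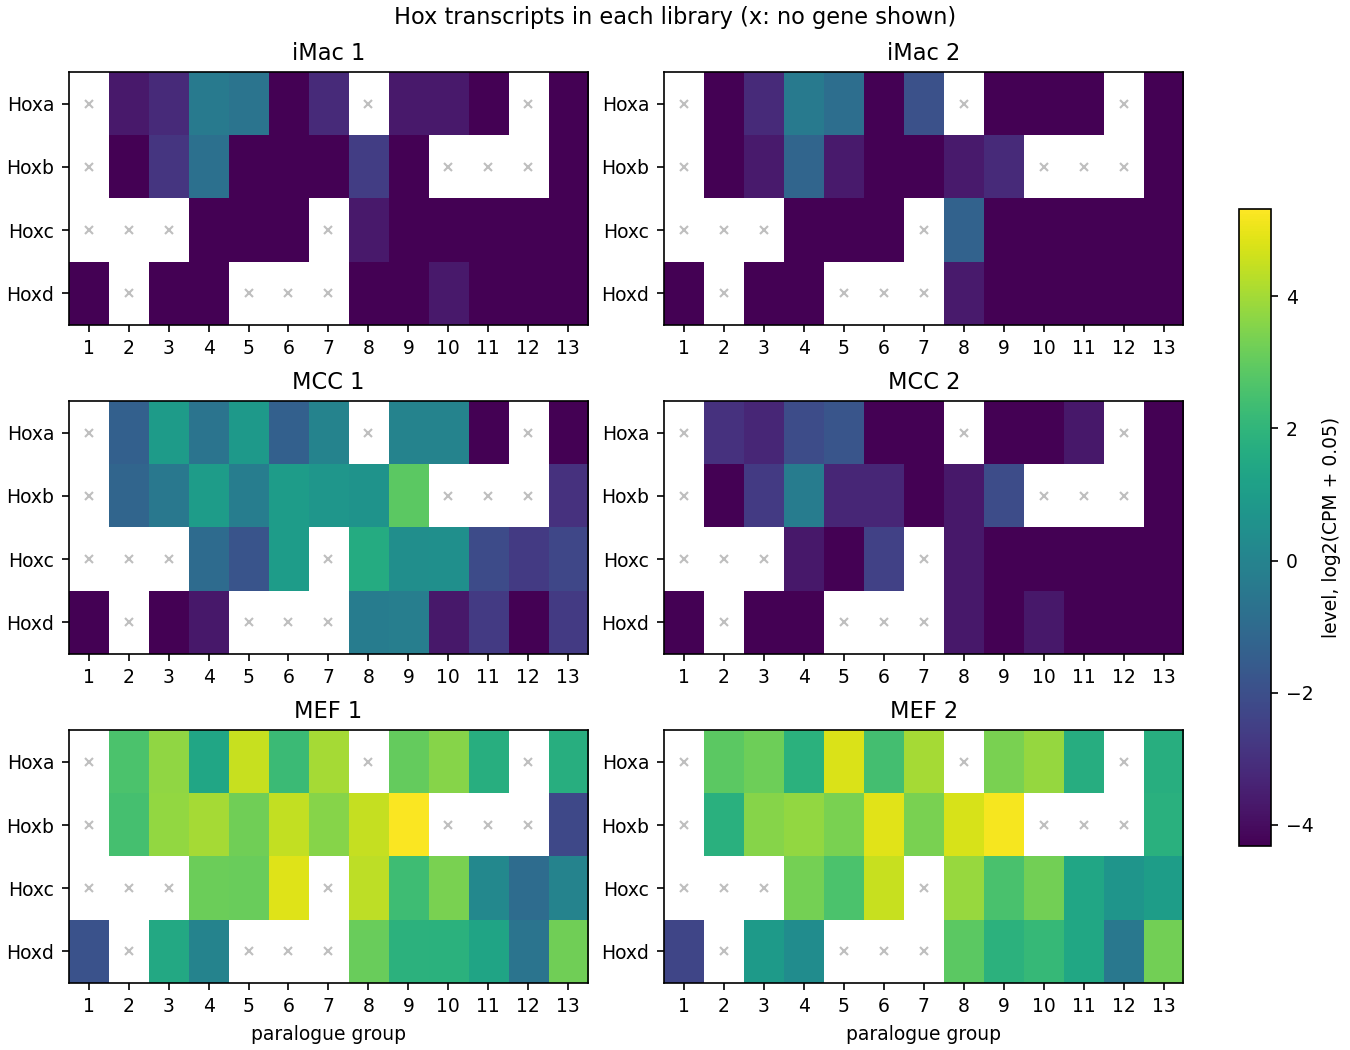
Level of each Hox member in each library, as log2(CPM + 0.05), with the clusters as rows and the paralogue groups as columns; an x marks a position with no gene shown. Both MEF panels are filled, and MCC 1 is fainter and uneven (34.7 CPM in all). In iMac 1, iMac 2 and MCC 2 the colour is left mainly in groups 4 and 5 of Hoxa and group 4 of Hoxb. Other cells are coloured too: in iMac 2 Hoxc8 is at 0.362 CPM beside 0.392 CPM for Hoxb4, and in MCC 2 Hoxb9 and Hoxa4 are both at 0.187 CPM.

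The comparison of iMac with MEF asks which parts of the fibroblast Hox pattern were lost in the macrophages. All 35 members described here that had enough counts to be tested fell and none rose (edgeR quasi-likelihood test, adjusted p under 0.05 over 18613 genes). Of all tested genes, 32.4% fell and 25.1% rose. The count of 0 rises stood also at an unadjusted p under 0.05, by DESeq2 and by limma-voom. The median log2 fold change of the tested members was -9.075, or -6.91 with members at 0 in iMac set to a floor of 3 counts over the group, and that of all tested genes was -0.06. Over both iMac libraries, 22 of the 37 members had no counts at all and 29 had 3 counts or fewer. Such members, where tested, passed the filter on low counts through other groups, so a rise could not have been called for them. Hoxa3, Hoxa7, Hoxb3, Hoxb8 and Hoxc8, with few counts in at least 1 iMac library, also passed it through other groups. Only Hoxa4, Hoxa5 and Hoxb4 had more than 3 counts in both iMac libraries. For the other members the 0 rises carry little weight. Hoxb13 and Hoxd1 had too few counts for the test. How many calls passed depended on single libraries: leaving out MEF library 1 gave 23, MEF library 2 gave 20, and either iMac library gave 11. The 11 members called in all 6 of these fits were Hoxa2, Hoxa11, Hoxa13, Hoxb3, Hoxb4, Hoxc4, Hoxd3, Hoxd4, Hoxd10, Hoxd11 and Hoxd13, and the other 24 calls were each lost in at least 1 fit.

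Groups 2 and 3 belong to the hindbrain and the pharyngeal arches, and they were nearly silent in iMac. Hoxa2, a selector of the identity of the second arch, had 0.0299 and 0 CPM in iMac, 0.338 and 0.0803 CPM in MCC and 6.04 and 7.39 CPM in MEF, which made it 449-fold lower (counting interval 80.2 to 17800). Intervals of this kind are at 95%. Hoxb2 had no counts in iMac, 0.390 and 0 CPM in MCC and 5.50 and 3.40 CPM in MEF, and it was at least 98.3-fold lower. Both iMac libraries lay below every MEF library for each of the 2. Hoxa3, needed for the thymus and parathyroid glands, had 0.0597 and 0.0603 CPM in iMac, 1.90 and 0.0535 CPM in MCC and 13.3 and 9.07 CPM in MEF, with a log2 change of -7.46 ± 1.68 (SE; edgeR, adjusted p = 0.0155). Hoxb3 had 0.0896 and 0.0301 CPM in iMac, 0.676 and 0.107 CPM in MCC and 13.4 and 11.9 CPM in MEF, with a log2 change of -7.64 ± 1.02 (SE; edgeR, adjusted p = 0.00354). Hoxd3 had no counts in iMac, no counts in MCC and 2.79 and 1.85 CPM in MEF and was at least 51.4-fold lower. More than 50% of the exonic bases of Hoxb3 and Hoxd3 are shared with other annotated genes, and since the strand setting of the counts is not given, reads there cannot be assigned to a single gene. Hoxd1 of group 1 had no counts in iMac or MCC and only 8 and 6 counts in MEF.

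Group 4 held 2 members with counts in both iMac libraries. Hoxa4 had 0.717 and 0.724 CPM in iMac, 0.598 and 0.187 CPM in MCC and 2.58 and 3.53 CPM in MEF, from 24 and 24 counts in iMac. Its level in iMac was below both MEF libraries, with a log2 change of -2.08 ± 0.56 (SE; edgeR, adjusted p = 0.0264), and the call was lost when either MEF library or either iMac library was left out. The annotation places 16.0% of its exonic bases over another gene. Hoxb4, known for expanding blood stem cells when it is forced on, had 0.537 and 0.392 CPM in iMac, 1.98 and 0.776 CPM in MCC and 16.0 and 13.7 CPM in MEF, from 18 and 13 counts in iMac. In iMac it fell by 4.985 on the log2 scale (SE 0.56; adjusted p = 0.00221, edgeR), a call that held in all 6 fits with a library left out, and none of its exonic bases is shared with another gene. The other members of the group were lost. Hoxc4 had no counts in iMac, 0.468 and 0.0267 CPM in MCC and 8.92 and 9.87 CPM in MEF and was at least 209-fold lower. Hoxd4 had no counts in iMac, 0.0260 and 0 CPM in MCC and 0.949 and 1.24 CPM in MEF and was at least 24.4-fold lower, with 52.3% of its exonic bases shared with other genes.

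**Figure D2:**
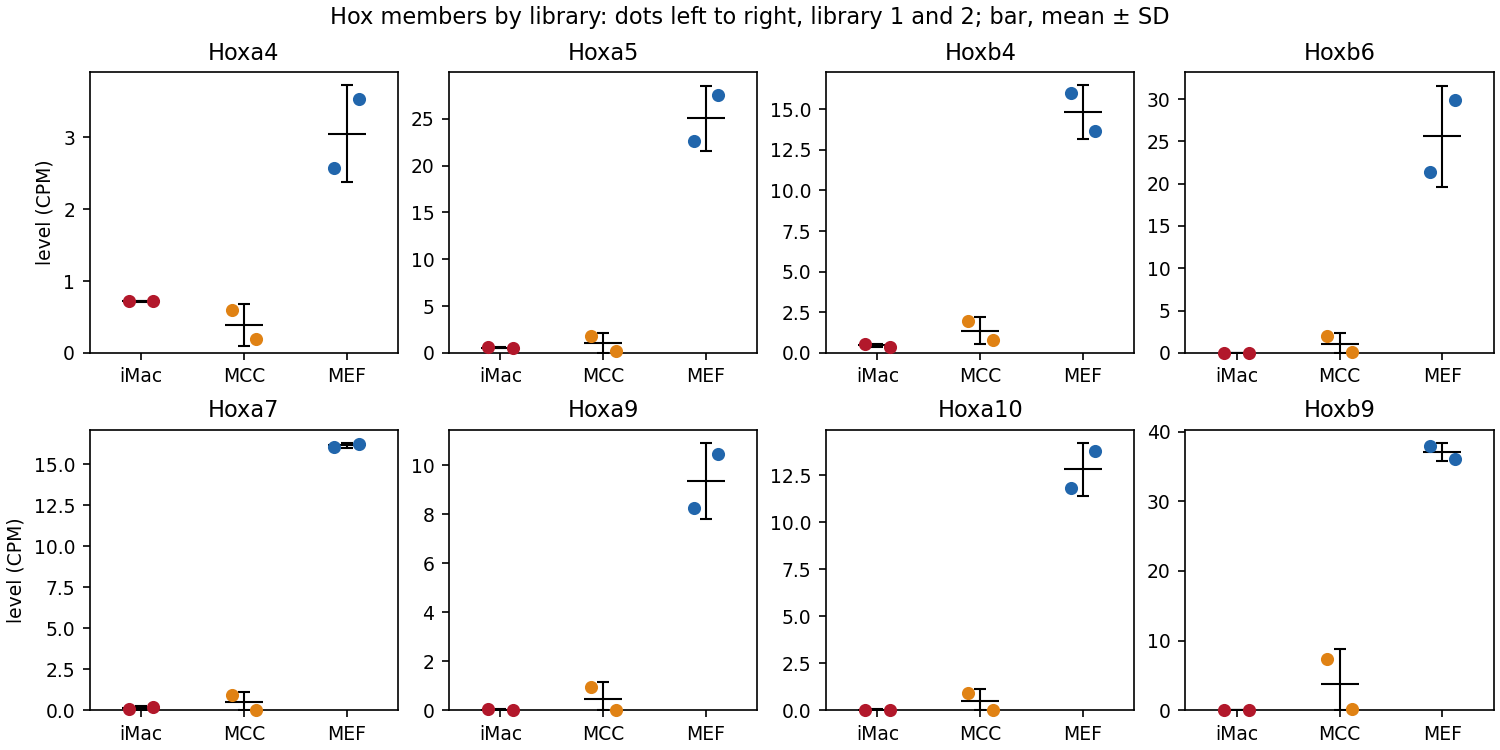
Level in CPM, each panel on its own axis from 0, of 8 Hox members in the 2 libraries of iMac, MCC and MEF; dots are libraries and bars the mean ± SD (n = 2). In all 8 panels the iMac dots lie below the MEF dots. For Hoxb6, Hoxa7, Hoxa9, Hoxa10 and Hoxb9 a single MCC library holds nearly all of the MCC level.

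Groups 5 to 8 pattern the neck and chest and held 50.4% and 50.3% of the Hox counts in MEF. Hoxa5, needed for the developing lung and used in myeloid progenitors, had 0.597 and 0.513 CPM in iMac, 1.82 and 0.241 CPM in MCC and 22.6 and 27.5 CPM in MEF, from 20 and 17 counts in iMac. In iMac it fell by 5.49 on the log2 scale (SE 0.95; adjusted p = 0.00729, edgeR) but remained at 2.38% and 2.05% of the MEF mean, and the call was lost without either iMac library. Hoxb5, a marker of long-term blood stem cells in the mouse, had 0 and 0.0301 CPM in iMac, 0.806 and 0.0535 CPM in MCC and 9.41 and 10.5 CPM in MEF, and it was 664-fold lower (counting interval 119 to 26300). Hoxc5 had no counts in iMac, 0.234 and 0 CPM in MCC and 8.67 and 5.90 CPM in MEF and was at least 161-fold lower. Hoxa5 was thus the only member of its paralogue group with more than 1 count in an iMac library.

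All 3 members of group 6 were without counts in iMac. Hoxa6 had 0.338 and 0 CPM in MCC and 4.66 and 5.41 CPM in MEF, and was at least 112-fold lower in iMac. Hoxb6 had 1.95 and 0.0535 CPM in MCC and 21.4 and 29.8 CPM in MEF, and was at least 571-fold lower in iMac. Hoxc6 had 1.95 and 0.134 CPM in MCC and 28.5 and 22.5 CPM in MEF, and was at least 565-fold lower in iMac. The bounds of Hoxb6 and Hoxc6 were the largest among members at 0 in iMac.

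Hoxa7 of group 7, a member of the set used in blood progenitors, had 0.0597 and 0.211 CPM in iMac, 0.936 and 0 CPM in MCC and 16.1 and 16.3 CPM in MEF, from 2 and 7 counts in iMac. In iMac it fell by 6.865 on the log2 scale (SE 1.60; adjusted p = 0.0173, edgeR). Hoxb7 had no counts in iMac, 1.61 and 0 CPM in MCC and 11.98 and 10.4 CPM in MEF and was at least 249-fold lower. Hoxb8 of group 8, which holds mouse myeloid progenitors in an immature state when it is forced on, had 0.119 and 0.0301 CPM in iMac, 1.48 and 0.0267 CPM in MCC and 22.3 and 26.9 CPM in MEF, from 4 and 1 counts in iMac and with a log2 change of -8.29 ± 1.67 (SE; edgeR, adjusted p = 0.0113). Hoxc8, a gene of the lower chest, had 0.0299 and 0.362 CPM in iMac, 2.99 and 0.0267 CPM in MCC and 20.7 and 14.1 CPM in MEF, from 1 and 12 counts in iMac. Its iMac libraries were uneven, and its log2 change was -6.45 ± 1.93 (SE; edgeR, adjusted p = 0.037). Hoxd8 had 0 and 0.0301 CPM in iMac, 0.780 and 0.0267 CPM in MCC and 8.65 and 7.47 CPM in MEF and was 536-fold lower (counting interval 95.9 to 21200).

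Groups 9 to 13 pattern the lower trunk, tail and limbs, and Hoxa9 and Hoxa10 of these groups are the members best known from blood progenitors and leukaemia. Hoxa9 had 0.0299 and 0 CPM in iMac, 0.936 and 0 CPM in MCC and 8.27 and 10.5 CPM in MEF, and its single count in iMac placed it 626-fold lower (counting interval 112 to 24800). Hoxa10 had 0.0299 and 0 CPM in iMac, 0.936 and 0 CPM in MCC and 11.8 and 13.8 CPM in MEF, likewise a single count in iMac, and was 856-fold lower (counting interval 153 to 33800). For both genes the counts of MCC were all in library 1. Hoxb9 had 0 and 0.0603 CPM in iMac, 7.28 and 0.187 CPM in MCC and 38.0 and 36.1 CPM in MEF and was 1230-fold lower (counting interval 341 to 10200). Hoxc9 had no counts in iMac, 1.33 and 0 CPM in MCC and 4.99 and 5.82 CPM in MEF and was at least 120-fold lower. Hoxd9 had no counts in iMac, 0.832 and 0 CPM in MCC and 3.63 and 3.61 CPM in MEF and was at least 80.4-fold lower. All 16 members of groups 9 to 13 had 3 counts or fewer over both iMac libraries.

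The remaining 5′ members were read mainly in MEF. In MCC library 1, however, Hoxc10, Hoxc11 and Hoxc12 were at 13.5%, 9.95% and 9.98% of the MEF mean. Hoxc10 had no counts in iMac, 1.35 and 0 CPM in MCC and 10.4 and 9.53 CPM in MEF, and it was at least 222-fold lower. Hoxd10 had 0.0299 and 0 CPM in iMac, 0.0260 and 0.0267 CPM in MCC and 3.52 and 4.35 CPM in MEF, and it was 263-fold lower (counting interval 46.9 to 10400). Hoxa11, which patterns the forearm and the uterus, had no counts in iMac, 0 and 0.0267 CPM in MCC and 3.25 and 3.17 CPM in MEF and was at least 71.3-fold lower, with 35.0% of its exonic bases shared with other genes. Each of these lay below both MEF libraries in both iMac libraries. Hoxc11 had no counts in iMac, 0.182 and 0 CPM in MCC and 1.08 and 2.58 CPM in MEF and was at least 41.1-fold lower. Hoxd11 had no counts in iMac, 0.104 and 0 CPM in MCC and 2.44 and 2.60 CPM in MEF and was at least 56.1-fold lower. Hoxc12 had no counts in iMac, 0.104 and 0 CPM in MCC and 0.488 and 1.60 CPM in MEF and was at least 23.5-fold lower. Hoxd12 was low in MEF too, at 0.596 and 0.670 CPM, and had no counts in iMac or MCC.

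Group 13 marks the tail and the ends of the limbs. Hoxa13, a gene of the hand and foot plates, had no counts in iMac, no counts in MCC and 3.25 and 3.27 CPM in MEF and was at least 72.5-fold lower. Hoxd13, which patterns the digits, had no counts in iMac, 0.104 and 0 CPM in MCC and 9.30 and 9.71 CPM in MEF and was at least 211-fold lower. Hoxc13, a gene of hair and nails, had no counts in iMac, 0.156 and 0 CPM in MCC and 0.949 and 2.01 CPM in MEF and was at least 33.2-fold lower. No iMac library held a count of any of these. Hoxb13 had no counts in iMac, 0.0780 and 0 CPM in MCC and 0.163 and 3.43 CPM in MEF, and its 6 and 133 counts in the MEF libraries made it the member on which these libraries differed most. Hoxc11, Hoxc12 and Hoxc13 were also higher in MEF library 2 than in MEF library 1.

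**Figure D3:**
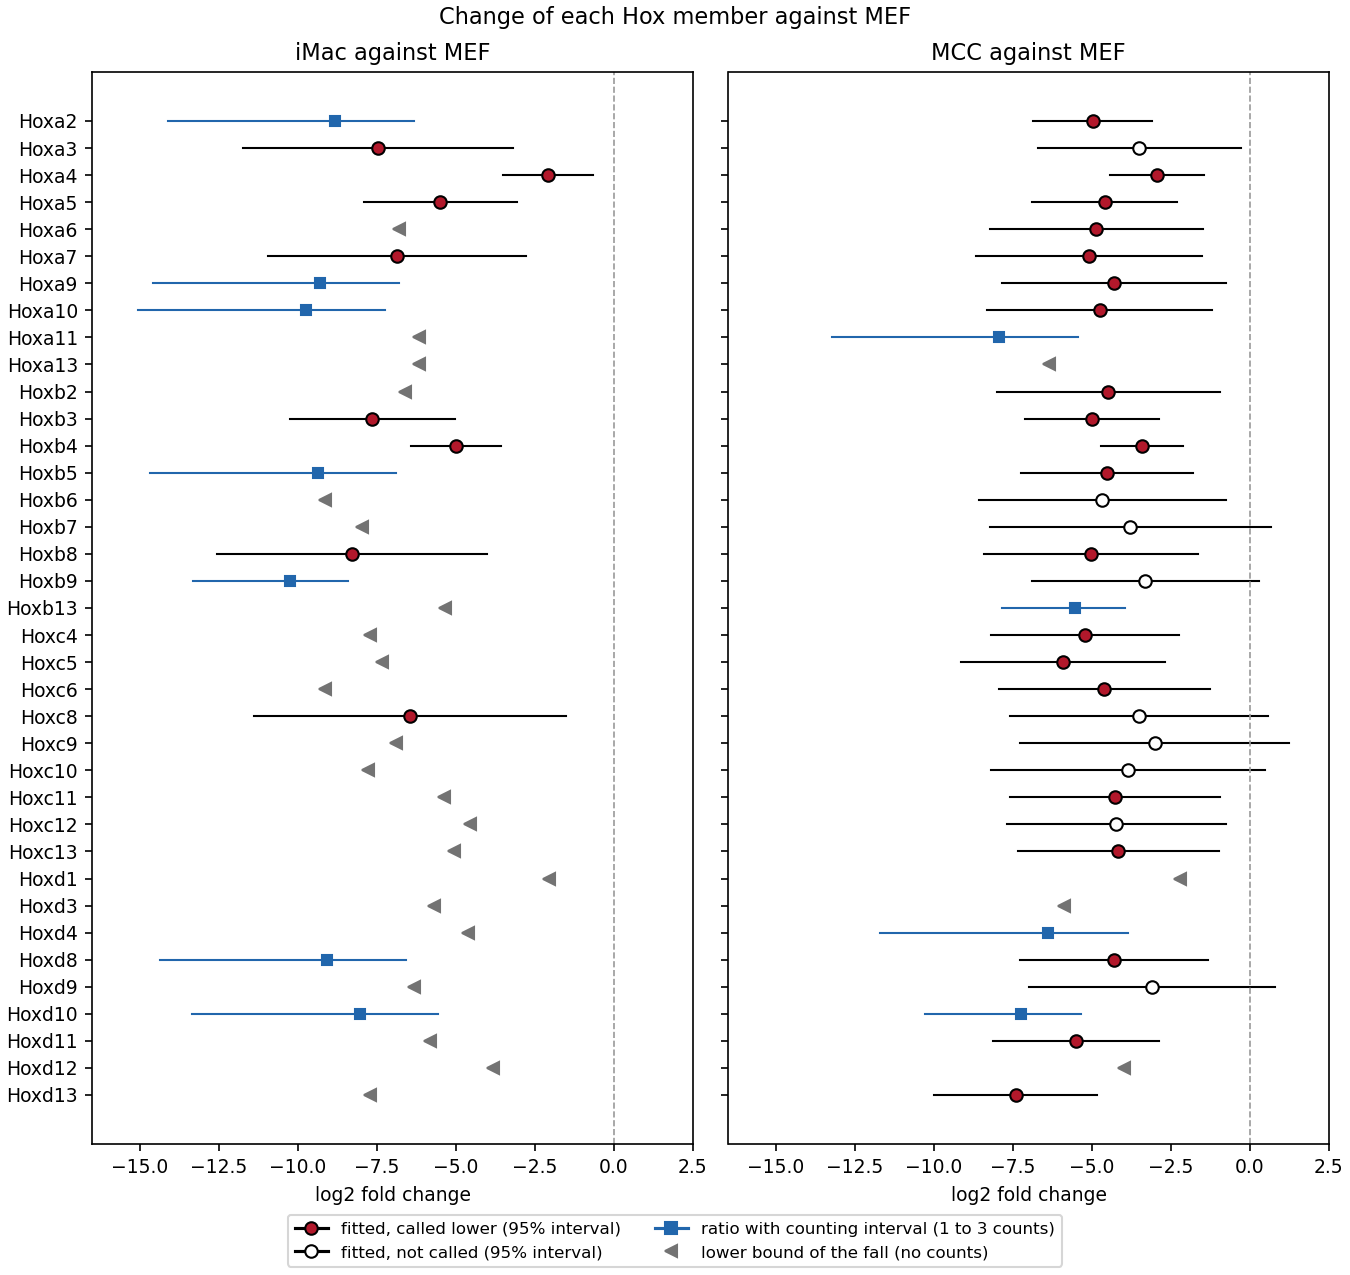
Log2 fold change against MEF of each Hox member in iMac (left) and MCC (right): circles are fitted values with 95% intervals, filled where called lower, squares are count ratios with 95% counting intervals for members with 1 to 3 counts, and triangles are bounds for members with no counts. Hoxa4, at -2.08 in iMac and -2.94 in MCC, lies nearest to 0 among the fitted values in both panels, and 22 members in the left panel have bounds only.

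The counts left in iMac were made up differently from those of the fibroblasts. Hoxa4, Hoxa5 and Hoxb4 were the only members described with more than 3 counts in both iMac libraries, and they are set apart here after their values were seen. Together they held 79.5% (95% exact binomial interval 68.8% to 87.8%) and 66.7% (55.3% to 76.8%) of the Hox counts in iMac, 12.7% and 59.2% in MCC and 11.9% and 12.7% in MEF. Hoxa4 alone held 30.8% and 29.6% in iMac, 1.72% and 9.21% in MCC, and 0.743% and 1.004% in MEF. In the share of the 3 genes together MCC library 2 stood nearer to the iMac libraries and MCC library 1 near the MEF libraries. The other 34 members summed to 0.156% and 0.266% of the MEF mean in iMac, and to 9.89% and 0.271% of it in MCC. These intervals cover counting error only. They do not cover the choice of the 3 genes by their counts in iMac, which by itself raises their share there.

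By cluster, the Hoxa members held 65.4% and 61.7% of the Hox counts in iMac, 22.5% and 28.9% in MCC and 26.5% and 28.4% in MEF. Hoxb members held 32.1% and 22.2% in iMac, 46.9% and 59.2% in MCC and 39.8% and 41.6% in MEF. Hoxc members held 1.28% and 14.8% in iMac, 25.3% and 9.21% in MCC and 24.4% and 21.0% in MEF, and 12 of their 13 counts in iMac were of Hoxc8 in library 2. Without Hoxa4 and Hoxa5, the remaining 8 Hoxa members were at 0.309% and 0.401% of the MEF mean in iMac, beside 0.525% and 0.382% for the whole of Hoxb, 0.0376% and 0.456% for Hoxc and 0.0937% and 0.0946% for Hoxd. These 8 members held 8.97% and 11.1% of the Hox counts in iMac, 15.5% and 7.89% in MCC and 19.2% and 19.6% in MEF. By position, groups 1 to 4 held 61.5% and 49.4% in iMac, 18.4% and 60.5% in MCC and 20.1% and 17.7% in MEF. Groups 9 to 13 held 3.85% and 2.47% in iMac, 38.7% and 11.8% in MCC and 29.5% and 32.1% in MEF.

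**Figure D4:**
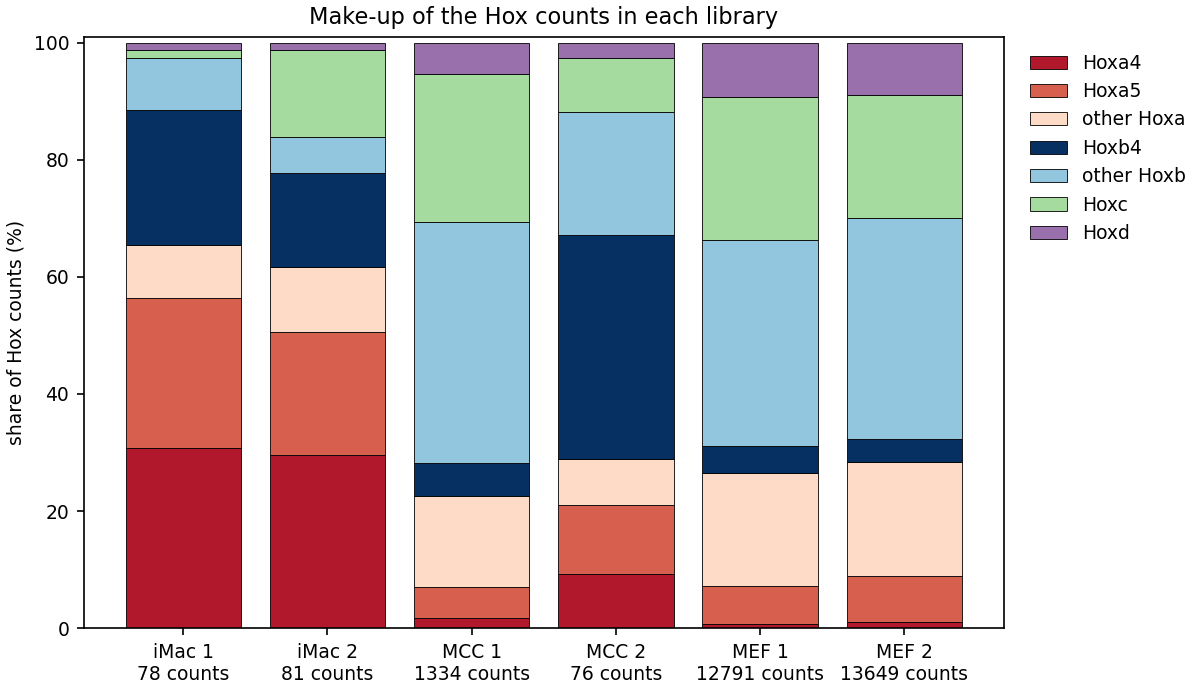
Share of the Hox counts of each library, in percent, held by Hoxa4, Hoxa5, the other Hoxa members, Hoxb4, the other Hoxb members, Hoxc and Hoxd; the total of Hox counts stands under each bar. Hoxa4 takes 30.8% and 29.6% of the iMac bars, and 9.21% of MCC 2, and Hoxb4 takes 38.2% of MCC 2.

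Levels of different members were compared per exonic length (RPKM), with Hoxb3, Hoxd3 and Hoxd4 left out because over 50% of their exonic bases are shared. In iMac the order was Hoxa4 with 0.452 ± 0.003 RPKM, Hoxa5 with 0.296 ± 0.032 RPKM and Hoxb4 with 0.181 ± 0.040 RPKM (SD, n = 2). The libraries of neighbours in this order did not overlap, from 0.4496 and 0.454 RPKM for Hoxa4 to 0.210 and 0.153 RPKM for Hoxb4. In MEF the order was led by Hoxb9 with 14.4 ± 0.52 RPKM, Hoxa5 with 13.4 ± 1.85 RPKM and Hoxb6 with 13.03 ± 3.05 RPKM, whose values overlapped within their spread. Hoxa4 stood at place 1 of these 34 members in iMac, and at place 21 in MEF, with 1.92 ± 0.42 RPKM. The 20 members above it in MEF were all below it in iMac.

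**Figure D5:**
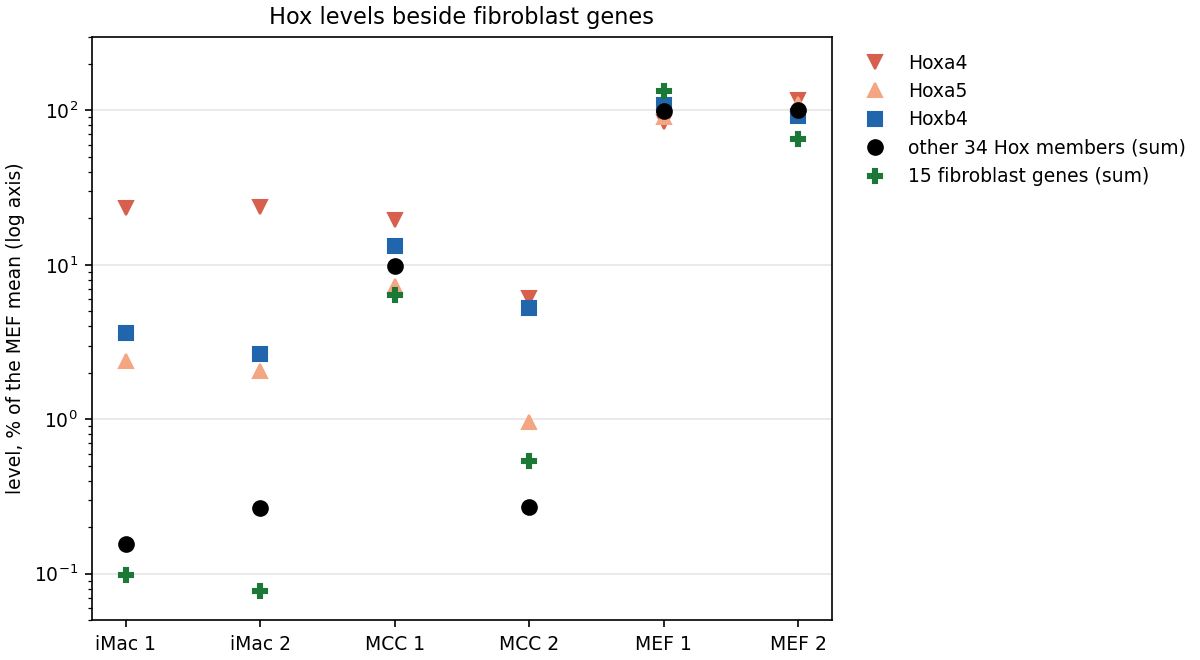
Level in each library as a percentage of the MEF mean, on a log axis, of Hoxa4, Hoxa5 and Hoxb4, of the sum of the other 34 members and of the sum of 15 fibroblast genes. Hoxa4 is at 23.5% and 23.7% in iMac, and the other 34 members lie between 0.156% and 0.271% in iMac 1, iMac 2 and MCC 2 and at 9.89% in MCC 1.

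The sequence just before a transcript start of 4 members is shown, 2 that kept counts in iMac and 2 that were lost. They come from the promoter windows of RefSeq on GRCm38.p6, which matched 21 of the 37 members in 23 windows, and the 4 were picked after the values were seen. Each is the run of 250 bases before the transcript start of the window, 5′ to 3′ on the strand of the gene, with CpG dinucleotides in capitals. The run of Hoxa9 lies inside the gene as annotated by GENCODE, at chr6:52223100-52231089. Hoxa5 is at chr6:52204588-52204837 on the minus strand, Hoxa9 at chr6:52227371-52227620 on the minus strand, Hoxb4 at chr11:96318017-96318266 on the plus strand and Hoxd13 at chr2:74667975-74668224 on the plus strand.
Hoxa5: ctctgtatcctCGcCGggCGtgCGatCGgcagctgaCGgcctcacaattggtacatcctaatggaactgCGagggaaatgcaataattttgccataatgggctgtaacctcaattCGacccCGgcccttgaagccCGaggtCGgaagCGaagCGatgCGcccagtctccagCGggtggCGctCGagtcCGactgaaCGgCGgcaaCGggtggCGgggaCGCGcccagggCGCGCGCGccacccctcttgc
Hoxb4: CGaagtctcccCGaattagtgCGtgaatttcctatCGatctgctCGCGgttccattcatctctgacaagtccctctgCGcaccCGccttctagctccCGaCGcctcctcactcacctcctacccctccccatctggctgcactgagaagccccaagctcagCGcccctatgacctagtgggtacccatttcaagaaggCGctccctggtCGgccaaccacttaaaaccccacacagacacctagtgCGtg
Hoxa9: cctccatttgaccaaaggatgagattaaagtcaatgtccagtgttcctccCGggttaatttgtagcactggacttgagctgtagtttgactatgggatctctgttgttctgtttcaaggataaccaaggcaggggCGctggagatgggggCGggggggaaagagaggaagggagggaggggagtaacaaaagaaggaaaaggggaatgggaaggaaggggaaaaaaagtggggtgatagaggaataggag
Hoxd13: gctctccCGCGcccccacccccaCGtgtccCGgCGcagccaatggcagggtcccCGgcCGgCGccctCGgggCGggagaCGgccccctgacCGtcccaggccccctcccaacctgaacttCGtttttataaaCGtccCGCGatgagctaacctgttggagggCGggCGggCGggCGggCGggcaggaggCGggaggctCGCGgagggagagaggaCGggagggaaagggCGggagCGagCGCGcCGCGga
The kept members have 28 CpG (Hoxa5) and 14 CpG (Hoxb4) in these runs, and the lost ones have 3 CpG (Hoxa9) and 31 CpG (Hoxd13), so the ranges of the pairs overlap. Over whole windows of 300 bases, the Hox windows held from 4 to 45 CpG with a median of 15, beside a median of 7 in all 32851 windows of the table. The Myc-type E-box CACGTG was found in 5 of 23 Hox windows (Hoxd1, Hoxd4, Hoxd10, Hoxd11 and Hoxd13), against 7.15% of all windows, on either strand. The Hox-Pbx motif TGATNNAT was in 3 (Hoxa2, Hoxb8 and Hoxd11), against 8.85% of all, and the PU.1 motif GAGGAA was in 4 (Hoxa9, Hoxb8, Hoxc4 and Hoxd11), against 28.3% of all. These matches are descriptions of letters in a window, not of binding.

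The comparison of MCC with MEF asks how far the Hox pattern was already lost in the myeloid-like complex. Of the 35 tested members, 26 fell, none rose and 9 did not pass the threshold, against 29.6% of all tested genes that fell and 23.4% that rose. The count of 0 rises stood also at an unadjusted p under 0.05, where 29 members were lower, and by DESeq2 and limma-voom. The 8 members with 3 counts or fewer over both MCC libraries could not have been called higher. Only 6 members had more than 3 counts in MCC library 2. Most tested members thus passed the filter on low counts through MEF, and the 0 rises carry little weight for them. The median log2 fold change was -4.605, or -4.596 with members at 0 set to the floor, beside -0.05 for all tested genes. Without MCC library 1 it was -8.91, and without MCC library 2 it was -3.62. The 9 members not called were Hoxa3, Hoxb6, Hoxb7, Hoxb9, Hoxc8, Hoxc9, Hoxc10, Hoxc12 and Hoxd9, and each of them was lower in both MCC libraries than in both MEF libraries. Without MCC library 1 the count of falls was 35, and without MCC library 2 it was 31. Leaving out MEF library 1 gave 12 falls, MEF library 2 gave 8, and either iMac library gave 16. The calls held in all 6 of these fits for Hoxa2, Hoxa11, Hoxa13, Hoxb3, Hoxb4, Hoxd3, Hoxd10 and Hoxd13.

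Hoxa4, Hoxb4 and Hoxa5 were the members described with more than 3 counts in both iMac libraries. In MCC, Hoxa4 fell by 2.94 on the log2 scale (SE 0.58; edgeR, adjusted p = 0.0126). Hoxb4 fell by 3.425 (SE 0.51; edgeR, adjusted p = 0.00562) and Hoxa5 fell by 4.596 (SE 0.90; edgeR, adjusted p = 0.012). Without MCC library 1 these changes were -3.99 for Hoxa4, -4.24 for Hoxb4 and -6.67 for Hoxa5, and without MCC library 2 they were -2.22, -2.78 and -3.66 in the same order. Without MEF library 2 the calls of Hoxa4 and Hoxa5 were lost (edgeR, adjusted p = 0.0581 and 0.0518), and that of Hoxb4 held in every fit with a library left out. MCC library 1 held more of each of these than MCC library 2. Hoxb9 had 280 counts and 19.7% of the MEF mean in MCC library 1, beside 0.506% in MCC library 2. Not all members were kept in MCC library 1 to the same extent: Hoxa11, Hoxa13, Hoxd1, Hoxd3 and Hoxd12 had no counts there, and Hoxd13, with a mean of 9.50 ± 0.29 CPM in MEF, had 4 counts.

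The comparison of iMac with MCC asks whether the Hox genes changed between the myeloid-like complex and the macrophages. None of the 35 tested members was called in either direction, against 0.0107% of all tested genes called lower and 0.0107% called higher, or 2 genes each. At an unadjusted p under 0.05, 5 members were lower in iMac (Hoxa2, Hoxb4, Hoxb5, Hoxb9 and Hoxc6) and 0 were higher. DESeq2 called 5 members lower and limma-voom 0. The median log2 fold change was -4.03, or -2.275 with members at 0 set to the floor, and -0.02 over all tested genes. These values rest on MCC library 1: without it the median was 0.000, and without MCC library 2 it was -5.06 with 18 members called lower. Hoxa4 had a log2 fold change of 0.87 ± 0.59 (adjusted p = 0.473), Hoxa5 of -0.89 ± 0.87 (adjusted p = 0.622) and Hoxb4 of -1.56 ± 0.52 (adjusted p = 0.235, all SE and edgeR). The comparisons with MEF share the MEF libraries, and both of the comparisons with MCC share the MCC libraries.

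Hox proteins bind DNA together with partners of the TALE homeobox class, the Meis, Pbx and Pknox proteins. Of 10 tested partner genes, 6 fell and 1 rose in iMac against MEF, where 32.4% of all tested genes fell and 25.1% rose. Meis1, the partner of Hoxa9 in blood progenitors and leukaemia, had 6.15 ± 0.72 CPM in iMac and 59.1 ± 11.6 CPM in MEF (SD, n = 2), and fell by 3.26 on the log2 scale (SE 0.40; adjusted p = 0.00274, edgeR). Meis2, a close relative of Meis1, fell to 0.0902 ± 0.0431 CPM in iMac, against 62.6 ± 1.65 CPM in MEF, a call that was lost without either iMac library. Pbx3 fell to 6.49 ± 0.78 CPM in iMac, against 38.6 ± 1.52 CPM in MEF. Pbx2, the partner gene that rose, had 96.0 ± 6.15 CPM in iMac and 47.8 ± 8.09 CPM in MEF (log2 change 1.004 ± 0.177, SE; edgeR, adjusted p = 0.0077; not called without iMac library 1). It was chosen after its values were seen. Over the fits with a library left out, 2 to 6 partner genes fell and 0 to 2 rose. In MCC against MEF the list also had 6 falls and 1 rise, beside 29.6% falls and 23.4% rises over all tested genes, and with a library left out it had 3 to 7 falls and 0 or 1 rise.

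Of 14 MLL and Menin complex genes, which keep Hox genes active, 5 rose and 5 fell in iMac. These counts, and those of the Polycomb genes, are near the shares over all tested genes (25.1% rose and 32.4% fell) and show nothing particular to the lists. Dot1l, a histone methyltransferase recruited by MLL fusions, had 184.0 ± 16.8 CPM in iMac and 80.2 ± 11.3 CPM in MEF (log2 change 1.20 ± 0.14, SE; edgeR, adjusted p = 0.00244), and Mllt3 fell by 1.23 (SE 0.18). Of 20 Polycomb genes, which keep Hox genes silent, 5 rose and 7 fell. Cbx7, a reader subunit, had 22.0 ± 3.21 CPM in iMac and 5.33 ± 1.71 CPM in MEF, and Ezh1, a methyltransferase, had 76.7 ± 1.15 CPM in iMac and 25.6 ± 3.13 CPM in MEF, while Phc1 had 12.5 ± 0.34 CPM in iMac and 42.1 ± 8.91 CPM in MEF. The calls of these 5 genes held with any library left out. The list counts moved more, to between 2 and 5 rises and 1 and 6 falls for the MLL and Menin genes, and to between 2 and 5 rises and 4 and 8 falls for the Polycomb genes. In MCC against MEF, 4 MLL and Menin genes rose and 5 fell, and 6 Polycomb genes rose and 9 fell, beside 23.4% rises and 29.6% falls over all tested genes. With a library left out, 4 or 5 MLL and Menin genes rose and 3 to 6 fell there, and 3 to 8 Polycomb genes rose and 5 to 9 fell.

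Retinoic acid opens Hox clusters from their 3′ end in the embryo. Of 14 tested genes of that pathway, 10 fell and 4 rose in iMac, beside 32.4% and 25.1% of all tested genes, and 6 to 10 fell and 3 or 4 rose with a library left out. Aldh1a2, the enzyme that makes retinoic acid in the embryo, had no counts in iMac and 13.6 ± 0.92 CPM in MEF, which is at least 303-fold lower. Other genes of limb and body position fell with the Hox genes: of 22 tested homeobox and T-box genes of that list, 21 fell in iMac, and 13 to 22 over the fits with a library left out. Tbx4, a gene of the hind limb, was at 6.97 ± 0.20 CPM in MEF and without counts in iMac, a fall of at least 155-fold. Prrx2, Msx1 and Meox2 of the same list were likewise without counts in iMac. With no counts there, these genes and Tbx4 passed the low-count filter only through other groups. Only a fall could therefore be called for them. In MCC 19 of the 22 fell, beside 29.6% of all tested genes, and 15 to 20 with a library left out.

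Of 13 tested genes beside or within the Hoxa cluster, 8 fell and 2 rose in iMac against MEF, and 2 to 8 fell and 2 or 3 rose with a library left out. Over all tested genes 32.4% fell and 25.1% rose, so the rises beside Hoxa were no more frequent than over the table. The genes that rose, named after their values were seen, were Skap2 and Snx10, 150 kb and 572 kb from the nearest described Hoxa member. Skap2, an adaptor protein of myeloid cells, had 151.3 ± 6.77 CPM in iMac and 60.6 ± 2.93 CPM in MEF (log2 change 1.32 ± 0.10, SE; edgeR, adjusted p = 0.000854). Of the 10 tested neighbours of Hoxb 7 fell and 1 rose, of the 8 of Hoxc 1 fell and 3 rose, and of the 10 of Hoxd 5 fell and 1 rose. With a library left out, 1 to 6 neighbours of Hoxb, 1 or 2 of Hoxc and 1 to 5 of Hoxd fell. The lists include noncoding RNAs within the clusters, some of which share exonic bases with members, such as Hoxb3os with Hoxb3 and Hoxa11os with Hoxa11.

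Of 9 tested blood progenitor genes, 6 fell and 3 rose in iMac, beside 32.4% and 25.1% of all tested genes, and 4 to 6 fell and 3 rose with a library left out. Kit, a receptor of progenitors, had no counts in iMac and 5.91 ± 4.94 CPM in MEF, and Mecom, a stem cell regulator, had a single count in iMac and 21.4 ± 8.07 CPM in MEF, while Tal1, a regulator of blood cell fate, had 38.8 ± 0.69 CPM in iMac and no counts in MEF. Of 10 tested genes reported as targets of Hoxa9 and Meis1 in blood, 7 fell and 1, Lmo2, rose. Of the 3 granulocyte genes tested 2 rose. The sums of both blood lists were higher in iMac than in MEF. The 13 blood progenitor genes summed to 394.2 and 351.1 CPM in iMac and 132.2 and 234.1 CPM in MEF. The 8 granulocyte genes summed to 114.9 and 117.3 CPM in iMac and 0.38 and 0.75 CPM in MEF, and Csf3r alone had 110.2 CPM on average in iMac. Markers of other cell types were summed as well: the 6 epithelial genes summed to 0 and 0.0302 CPM in iMac and 3.88 and 6.16 CPM in MEF, the 6 neural genes to 0.747 and 0.603 CPM in iMac and 93.4 and 110.9 CPM in MEF, the 5 skeletal muscle genes to 0.687 and 1.21 CPM in iMac and 106.2 and 46.8 CPM in MEF, and the 6 endothelial genes to 9.62 and 8.44 CPM in iMac and 33.6 and 43.6 CPM in MEF. Of the endothelial genes 3 fell and 2 rose in iMac, and those that rose were Tie1 and Pecam1. The part of these cell types in the Hox values of MEF was not tested.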

How the data were processed

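Reads of 6 libraries, 2 each of iMac, MCC and MEF, had been aligned by the authors with STAR to mm10 and counted with featureCounts, per the submitters' processing notes. Their versions, the annotation, the strand setting and the treatment of multimapping reads were not given in the sources used here. Trizol was used for RNA and an mRNA kit for the libraries, per the labels' protocols. The deposited values are raw counts of reads per gene, used as deposited.

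Coordinates, exonic lengths and shared exonic bases came from GENCODE mouse release M21 on GRCm38. The test was the two-sided quasi-likelihood test of edgeR 4.0.16 under R 4.3.3 (filterByExpr, TMM scaling, a group term over all 6 libraries, 3 residual degrees of freedom, prior count 0.125). The filter left 18613 of 30445 genes. P-values were adjusted over all tested genes by the Benjamini-Hochberg method, with a threshold of 0.05. CPM are counts per 1e6 of the TMM-scaled library total. A fold against a group at 0 is a bound against 3 counts over the group, and one against 1 to 3 counts is a ratio with a 95% counting interval. At library totals of 34389817 to 39174367 counts, a floor of 3 counts was 0.045 CPM for iMac and 0.0396 CPM for MCC and MEF. Counting intervals, binomial intervals and floors cover counting error only, while the intervals of fitted values rest on the SE of the edgeR fit.

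The members, the gene lists and the tests were chosen with earlier results of these data known. Of the 38 members, 1 is not reported here, and sums, medians and counts are over the other 37, while the fits hold all genes. Library values are given for members that reached 1 CPM on average in a group or over 3 counts in iMac, and also for Hoxd1 and Hoxd12, which fall outside this rule, and from each list up to 4 genes with the largest called changes against MEF were eligible to be named; genes named outside this rule are said to be so. Alternatives were median-ratio size factors, library totals, DESeq2 1.42.0, limma-voom (limma 3.58.1), no filter, a fit restricted to both groups of a comparison, a filter at 5 CPM in at least 2 libraries, a replicate block and each library left out in turn. A group left with 1 library is assumed to vary like the others. The pipeline was tested on simulated data. Figures used Python 3.11.15 with matplotlib 3.10.9.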

Additional observations from a re-analysis of the deposited data

How the results depend on the processing

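No Hox member was called higher in any comparison under any alternative run, and the falls in iMac and MCC against MEF kept their direction under every scaling, test and filter. Members at or near 0 counts in iMac or MCC could not have been called higher there. The number of members called lower in iMac against MEF was 35, with 36 by DESeq2 and with no filter (which also test members of very low counts), 31 with the replicate block, 20 under the filter of 5 CPM, which left 20 members to test, and 11 to 35 with libraries left out. In MCC against MEF it was 26, with 13 under that filter, 15 in a fit of only the groups compared and 8 to 35 with libraries left out. In iMac against MCC it was 0, with 5 by DESeq2 and 0 to 18 with libraries left out. The median log2 fold change of iMac against MEF (-9.075) was -7.92 by limma-voom, -9.40 with the replicate block, -6.91 with members at 0 at the floor of 3 counts, and -9.52 to -9.01 with libraries left out. That of MCC against MEF (-4.605) ran from -8.91 to -3.62 with libraries left out. That of iMac against MCC (-4.03) was -1.24 in a fit of only these groups and ran from -5.06 to 0.000 with libraries left out.

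Single members turned direction in few places. In iMac against MCC, Hoxa7 was 0.178 by limma-voom. The others turned only without MCC library 1, which gave the upper ends of these ranges: Hoxa3 -5.038 to 0.132, Hoxa5 -1.842 to 1.168, Hoxa7 -2.905 to 5.305, Hoxa9 and Hoxa10 -7.132 to 2.401, Hoxb8 -4.5 to 1.353 and Hoxc8 -5.508 to 2.691, none of these called in the fit of all libraries. The cause was not tested. The labels do not say whether the replicate numbers pair the libraries. Same-numbered libraries correlated in their deviations at 0.131 (MCC and MEF), -0.007 (iMac and MEF) and 0.002 (iMac and MCC), each over 18613 genes. With 2 libraries in each group these values cannot decide whether libraries were paired. With the replicate block 31 members were called lower in iMac against MEF and 22 in MCC against MEF. In iMac 29 of 37 members had 3 counts or fewer, so their changes are bounds or ratios with wide counting intervals.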
